A study of Mus musculus with 2 samples.

Results

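The gamma-delta T cells of the mouse mitral valve are described here from single-cell RNA-Seq of 1 WT library and 1 mgR library. A cell was selected on its measured UMIs (unique molecular identifiers, 1 for each captured RNA molecule): at least 1 UMI summed over Cd3e, Cd3d and Cd3g, at least 2 UMIs summed over Trdc, Trdv4, Tcrg-V6 and Cd163l1 (the receptor sum), fewer than 3 UMIs summed over Nkg7, Cd8a and Cd8b1, and fewer than 5 UMIs summed over C1qa, C1qb and C1qc. Among 4313 cells with 200 to 5000 genes detected and no more than 10% of UMIs from mitochondrial genes, the rule chose 90, 52 of 875 in the WT library and 38 of 3438 in the mgR library. No barcode outside those limits met the rest of the rule.

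The mgR mice were homozygous for the mgR allele of Fbn1 (Fbn1 mgR/mgR), a hypomorphic allele that lowers fibrillin-1, and the WT mice were Fbn1+/+ littermates. All were 12 weeks old and on the C57BL/6J background, and the labels give no treatment for either group. The leaflets were broken up with enzymes and live cells were sorted before capture, so a share of cells depends also on how well each cell type survived digestion. With 1 library per genotype, a difference between libraries and a difference between genotypes cannot be told apart, no test between genotypes was possible, and every interval given is a 95% interval for counting error only.

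Gamma-delta T cells carry a T cell receptor made of a gamma and a delta chain in place of the alpha and beta chains. Several subsets leave the thymus before or around birth, settle in tissues such as skin, lung, uterus, fat and meninges, and renew there. The subset that joins the Vgamma6 and Vdelta1 segments (gamma segments are named here in the nomenclature of the files, Tcrg-V6 with Trdv4) is programmed in the fetal thymus to make interleukin-17 (IL-17), bears an almost invariant receptor and carries the scavenger receptor SCART1, encoded by Cd163l1.

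The sequences that define this receptor are the germline ends of its V segments, where the joining region starts. They are shown 5′ to 3′ on the coding strand as annotated in GENCODE for GRCm38, with capitals from the cysteine codon that opens the joining region to the last germline base. Trdv4 is on chromosome 14 and the bases shown lie at chr14:54075426-54075515 (+). Tcrg-V6 is on chromosome 13 and the bases shown lie at chr13:19190840-19190929 (+). Both stretches are within a coding exon.
Trdv4: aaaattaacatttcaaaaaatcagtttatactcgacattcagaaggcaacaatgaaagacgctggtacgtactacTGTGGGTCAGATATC
Tcrg-V6: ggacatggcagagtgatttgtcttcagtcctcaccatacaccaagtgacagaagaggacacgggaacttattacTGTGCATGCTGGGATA

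The constant segments are the part of the gamma chain that the 3′ libraries read best, and they resemble each other. The last 90 coding bases are shown for Tcrg-C1 at chr13:19216526-19216615 (+), Tcrg-C2 at chr13:19305063-19305152 (−) and Tcrg-C4 at chr13:19352251-19352340 (+), with capitals where a base differs from Tcrg-C1.
Tcrg-C1: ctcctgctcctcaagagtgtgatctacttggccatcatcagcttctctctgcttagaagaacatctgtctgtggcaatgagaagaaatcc
Tcrg-C2: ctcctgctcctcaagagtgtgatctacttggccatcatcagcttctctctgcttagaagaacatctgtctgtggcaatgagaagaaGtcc
Tcrg-C4: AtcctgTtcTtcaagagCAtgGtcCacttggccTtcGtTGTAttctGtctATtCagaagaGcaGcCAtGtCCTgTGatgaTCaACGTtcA
Over this stretch Tcrg-C2 was 98.9% and Tcrg-C4 62.2% identical to Tcrg-C1. Of 411 windows of 90 bases in the last 500 bases of the Tcrg-C1 transcript, 15 (3.65%) also occurred in Tcrg-C2 and 0 in Tcrg-C4. Reads from such windows could have been assigned to either gene or left out, so the split between Tcrg-C1 and Tcrg-C2 is uncertain.

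The genes of the rule were abundant in the chosen cells, which is a description of the choice and not a finding. Trdc, the delta constant chain, had 691 UMIs over the 52 WT cells and 477 over the 38 mgR cells, and the median cell held 12 and 10.5 UMIs. Trdv4 had 319 and 122 UMIs, and the median cell held 5 and 2. Cd163l1 had 282 and 130 UMIs. Tcrg-V6 had 38 and 7 UMIs and was never above 2 UMIs in a cell of either library. Every WT member and 37 of 38 mgR members had a Trdc UMI. Fibroblast-rich cells with no Cd3 UMI gave the background, with Trdc in 1 of 352 of them in WT (0.284%) and 1 of 1196 in mgR (0.0836%), at median depths of 5248.5 and 6552.5 UMIs against 4107 and 5250.5 in the gamma-delta cells.

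The rule separated the WT library widely and the mgR library less so. Of the CD3 cells below the cytotoxic limit, 24 WT cells had a receptor sum of 0 and 3 had a sum of 1, none had 2 or 3, and the lowest member had 4. In the mgR library 95 cells had a sum of 0 and 5 had a sum of 1, just outside the threshold, while just inside it 1 cell had a sum of 2, 2 had 3 and 4 had 4. The highest sum was 56 in both libraries. In the WT library 1 of 15 cytotoxic CD3 cells reached the receptor sum and was left out for its cytotoxic sum, and the 27 Trdc UMIs of the other WT CD3 cells all lay in 1 cell, and 5 mgR cells were left out for their C1q sum. A further 2 mgR cells reached the receptor sum with no Cd3 UMI.

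**Figure D1:**
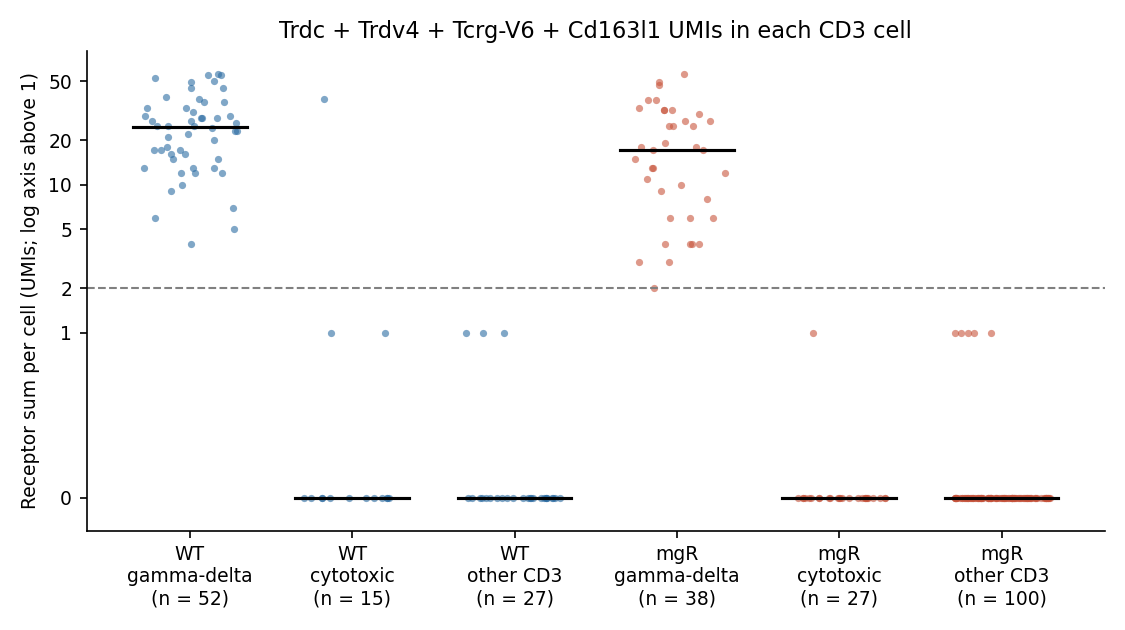
Receptor sum (Trdc, Trdv4, Tcrg-V6 and Cd163l1 UMIs, log axis above 1) of each CD3 cell by library and class. Points are cells, black lines are medians and the dashed line is the threshold of 2 UMIs. WT members start at 4 UMIs, whereas mgR members start at the threshold.

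Markers outside the rule are described here. They were chosen with earlier results of these data known, so they are no independent check of the label. Tcrg-C1 had UMIs in 46 of the 52 WT and 30 of the 38 mgR members, and Blk, a Src-family kinase used by IL-17-producing gamma-delta cells, in 42 and 23. Among the other CD3 cells Tcrg-C1 was seen in 31.0% (WT) and 31.5% (mgR), and Blk in 19.0% and 14.2%. Trac, the alpha constant chain, had 7 UMIs in 5 WT cells and 8 UMIs in 2 mgR cells. The other CD3 cells had 59 UMIs in 25 of 42 WT cells and 149 UMIs in 64 of 127 mgR cells. Trbc1, a beta constant chain, was at 1.14 and 1.12 times the level of the other CD3 cells, and was seen in 31 and 19 members. Trbc2, the other beta constant chain, was seen in 38 and 30 members, and in 33 of 42 and 114 of 127 other CD3 cells. Cd4 had 0 UMIs in both libraries, which allows up to 14.2 CPM (UMIs per 1000000 UMIs summed over the cells) in WT and 11.7 CPM in mgR. Cd8a and Cd8b1, which the rule limits, also had 0. The other gamma and delta V segments had few UMIs: Tcrg-V5 had 5 and 1, Tcrg-V1 had 3 and 2, Tcrg-V4 had 2 and 2, Trdv5 had 1 and 0, and Trdv1 and Trdv2-2 had 0 in both. The exception to the label was a group of mgR cells that met the rule on Trdc alone, described further on.

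Markers of other cell types were low in most members. Fibroblast markers (11 genes) summed to 18 UMIs in the WT cells, at most 2 per cell, and to 863 UMIs in the mgR cells, at most 787 per cell. Dendritic cell markers (9 genes, 5 of them at 0 in WT and 2 at 0 in mgR) summed to 15 and 1293 UMIs, with up to 3 and 975 per cell. Macrophage markers (14 genes) summed to 62 and 333 UMIs, and endothelial markers (8 genes, 7 of them at 0 in WT) to 3 and 61. B cell markers (6 genes) summed to 8 and 22 UMIs, and markers of innate lymphoid and NK cells (12 genes, 10 at 0 in WT and 9 in mgR) to 12 and 37. Neutrophil (5 genes), red cell (4 genes) and melanocyte (5 genes) markers summed to 4, 62 and 1 UMIs in WT and to 0, 23 and 0 in mgR. Most of the excess in mgR lay in 4 barcodes with 93, 304, 808 and 976 UMIs of MHC class II, fibroblast and endothelial genes, against at most 4 in each of the other 34 mgR cells and each of the 52 WT cells. These 4 are called mixed barcodes. They held 63798 UMIs, or 25% of all UMIs of the mgR members, and the genotypes are compared with and without them.

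Gamma-delta T cells made up a smaller share of the mgR library than of the WT library. Of all kept WT cells 5.94% were gamma-delta T cells (Clopper-Pearson interval 4.47 to 7.72), and in mgR 1.11% (0.783 to 1.51). The mgR minus WT difference was -4.84 percentage points (-6.64 to -3.31). Among cells with a UMI of Ptprc, which encodes the leukocyte antigen CD45, they were 10.4% (39 of 375) and 1.78% (33 of 1850). Among CD3 cells they were 55.3% (52 of 94, interval 44.7 to 65.6) and 23.0% (38 of 165, 16.8 to 30.2), a difference of -32.3 points (-44.3 to -19.5). The remaining non-cytotoxic CD3 cells were 28.7% of CD3 cells in WT and 60.6% in mgR, 31.9 points higher (18.9 to 43.5), while cytotoxic CD3 cells were 16% and 16.4%. Among all cells these remaining non-cytotoxic CD3 cells were 3.09% and 2.91%, a difference of -0.177 points (-1.65 to 1.03). Cytotoxic CD3 cells were also a smaller share of all cells in mgR, at 1.71% and 0.785% (-0.929 points, -2.06 to -0.0975). A share does not give a number of cells per valve, so fewer gamma-delta cells and more of the other cells cannot be told apart.

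Both libraries held cells of more than 1 animal, since some cells had UMIs of Xist and others of Y-linked genes, although the methods describe male mice. Of the members, 16 WT and 18 mgR cells had Xist and no Y-linked UMI, 19 and 13 had Y-linked and no Xist UMI, and none had both. The libraries differed in this makeup, since 246 of 875 kept cells in WT but 2091 of 3438 in mgR were of the first kind. Gamma-delta cells made up 6.5% (WT) and 0.861% (mgR) of the first kind, and 5.64% and 1.80% of the second. The corresponding shares of CD3 cells were 48.5% and 21.4%, and 52.8% and 27.1%. The mgR share was the lower one in all 4 splits, with differences whose intervals left out 0, the nearest bound being -1.30 points among all cells and -2.96 points among CD3 cells. Cells were not assigned to single animals here, so the spread between animals was not measured.

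**Figure D2:**
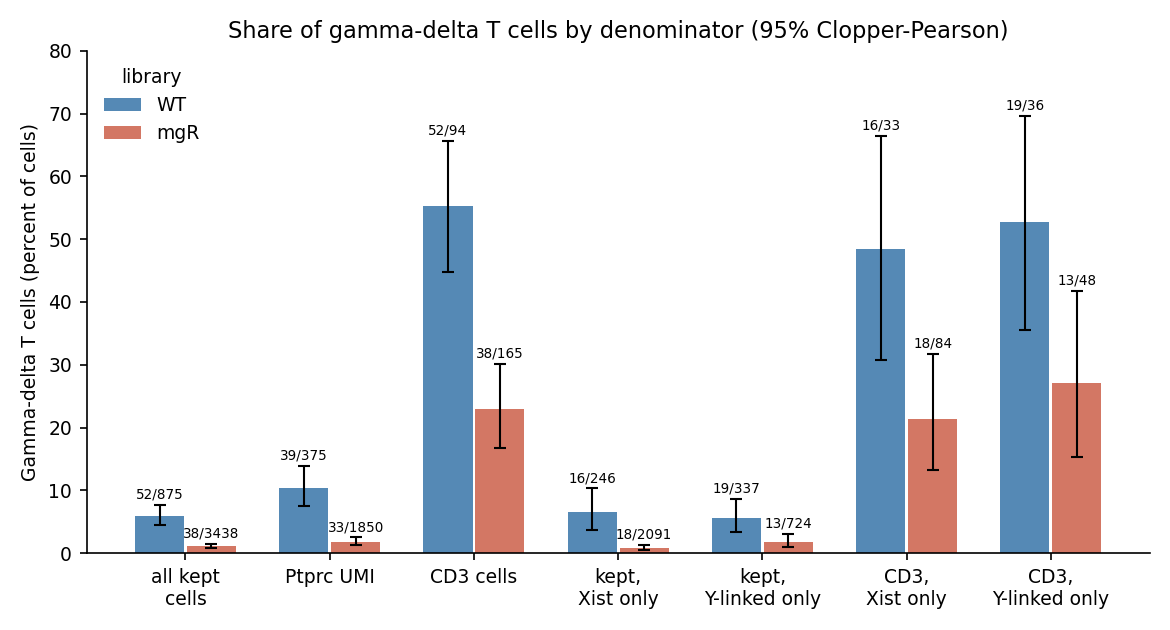
Gamma-delta T cells as a percentage of 7 denominators in each library, with cell numbers above the bars. Bars are shares and error bars are 95% Clopper-Pearson intervals (counting error only). The mgR bar is below the WT bar for each denominator, at 1.11% against 5.94% of all kept cells.

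Gamma-delta T cells were then compared with the other CD3 cells of the same library (42 WT and 127 mgR cells, with median depths of 4567 and 5154 UMIs), in both libraries separately. Mixed barcodes were kept on both sides, 4 among the mgR members and 2 WT and 15 mgR cells among the other CD3 cells. The ratios of mgR to WT in the other CD3 cells given further on keep them too. A gene was called when the CPM ratio was at least 2 or at most 0.5 with an interval that left out 1, alike in both libraries. Of 6553 genes with at least 20 UMIs over these cells, 64 were higher (0.977% of genes tested) and 63 were lower (0.961%). Since these cells were sorted by the UMIs of the rule, including its limit on Nkg7 and Cd8 genes, the calls describe the choice and support nothing further.

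Of 14 tested CD3 and signalling genes, 1 was higher than in the other CD3 cells (Cd247) and 1 lower (Lck), with median log2 ratios of 0.20 in WT and -0.037 in mgR against 0.12 and 0.10 over all genes tested. Among the 6 tested gamma-delta receptor genes, 5 were higher in both libraries, 3 of which are rule genes. Tcrg-C1 was at 911 CPM in WT members against 123 CPM in the other CD3 cells (ratio 7.38, interval 4.89 to 11.6) and at 568 against 85.0 CPM in mgR (6.68, 4.94 to 9.13). Tcrg-C4 was 3.57 and 4.50 times higher, while Tcrg-C2 had ratios of 0.88 and 1.87 and was not called. Blk was higher by 7.54 times (4.21 to 14.7) and 8.31 times (5.04 to 14.2). Lck, the kinase that starts receptor signalling in most T cells, had 0 UMIs in the members of both libraries against 33 and 98 in the other CD3 cells, at least 11.0-fold lower in WT and at least 11.3-fold lower in mgR when 3 UMIs stand for the zero. Fyn, another kinase of this family, was at 1.11 and 0.900 times the level of the other CD3 cells.

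Further signalling genes followed. Cd247, the zeta chain of the CD3 complex, was 5.27 and 3.15 times higher. Clnk, an adaptor of immune receptor signalling, was 11.7 (3.68 to 59.3) and 9.19 (3.53 to 28.1) times higher. Cd28, the main costimulatory receptor of alpha-beta T cells, had 0 UMIs in the members of both libraries, at least 8.33-fold and 10.8-fold lower. Fyb, an adaptor of T cell receptor signalling, was lower at ratios of 0.0400 and 0.132. Pdcd1, which encodes the inhibitory receptor PD-1, was 3.31 (2.48 to 4.49) and 5.68 (4.24 to 7.67) times higher, at 959 CPM in WT and 544 CPM in mgR members, and Tox, a transcription factor linked to sustained receptor stimulation, was 9.50 and 2.76 times higher. Ctla4 had 0 UMIs in the members of both libraries.

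Of 26 tested genes of the IL-17 program, 5 were higher than in the other CD3 cells and 0 lower, with median log2 ratios of 1.1 in WT and 0.73 in mgR against 0.12 and 0.10 over all genes tested. Il23r, the receptor for the cytokine that maintains IL-17 production, was 3.46 (1.84 to 6.99) and 2.83 (1.78 to 4.49) times higher. Il1r1, the interleukin-1 receptor, was 4.33 and 2.0 times higher. Il1r1 was not specific to these cells, being seen in 36.9% of 352 WT and 40.7% of 1196 mgR fibroblast-rich cells. Members had it in 59.6% (WT) and 55.3% (mgR). Thinned to equal depth, the shares were 23.1% of WT members against 11.2% of fibroblast-rich cells. In mgR they were 8.11% against 9.74%. The other 3 higher genes were Blk, Jaml, an adhesion receptor of epithelial gamma-delta cells, at 2.27 and 2.21 times, and Cd163l1 of the rule. The transcription factors Maf and Rora, both expressed in IL-17-producing cells, were at ratios of 1.83 and 1.72 and of 1.21 and 1.09, and neither was called. Il7r, the receptor for a survival cytokine, had UMIs in 50 of 52 WT and all 38 mgR members, at 2326 and 1950 CPM.

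The IL-17 cytokines themselves were seen in few cells. Il17a had 19 UMIs in 10 of 52 WT cells (19.2%) and 14 UMIs in 3 of 38 mgR cells (7.89%), 9 of the 14 in a single cell. After each cell was thinned to 1000 UMIs the shares were 7.69% and 5.41%, with 1 shallower mgR cell left out. In fibroblast-rich cells Il17a was seen in 0 of 352 and 0 of 1196 cells. Il17f had 5 and 6 UMIs, in 4 cells of each library. Ltb, which encodes lymphotoxin beta, was at 1419 CPM in WT and 838 CPM in mgR members. Tnf had 11 and 15 UMIs, and Areg, a growth factor of tissue repair, was lower than in the other CD3 cells at ratios of 0.25 and 0.283.

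The type 1 and cytotoxic genes are tied to the limit on Nkg7 and Cd8 genes in the rule. Of 13 tested genes 8 were lower and 0 higher. Ccl5, a chemokine of cytotoxic cells, had 0 UMIs in WT members and 649 in the other CD3 cells, at least 216-fold lower, and 5 against 725 UMIs in mgR (ratio 0.0200, interval 0.00648 to 0.0469). All 5 lay in 1 mixed barcode. Ms4a4b, a membrane protein of effector T cells, was at least 31.0-fold lower in WT and at a ratio of 0.0532 in mgR. Ctsw, a cathepsin of cytotoxic cells, was at ratios of 0.0976 and 0.0586. Ms4a6b was at 0.0566 and 0.154, and Gramd3 had 0 UMIs against 35 in WT, at least 11.7-fold lower, and 1 against 88 in mgR (ratio 0.0330, 0.000825 to 0.189). That 1 UMI, and 5 of the 10 mgR member UMIs of Ms4a6b, lay in mixed barcodes. Ifng, Gzma and Eomes had 0 UMIs in the members of both libraries, and Klrk1, which encodes the activating receptor NKG2D, was at 252 and 243 CPM, 1.39 and 1.78 times the other CD3 cells. Of 5 tested type 2 genes 2 were lower, Il1rl1 and Areg, and Il4, Il5 and Il13 had 0 UMIs.

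Several of the genes with the highest lower bounds have no standard place in T cell biology. Auts2, a regulator of neuronal development, had 35 UMIs in WT members and 0 in the other CD3 cells, at least 11.7-fold higher, and 14 against 3 in mgR (13.5 times, 3.78 to 73.5). Stab2, a scavenger receptor for hyaluronan, had 21 UMIs against 1 in WT (21 times, 3.38 to 868), and 18 against 0 in mgR, at least 17.4-fold higher. Ret, the receptor of glial-derived growth factors, was 7.0 and 5.16 times higher. Rapsn, which clusters acetylcholine receptors at synapses, had 12 UMIs against 0 in WT, at least 4.0-fold higher, and 14 against 8 in mgR (5.08 times). Ckb, a creatine kinase, was 3.64 (2.61 to 5.19) and 3.69 (2.98 to 4.58) times higher. Slc16a6, a monocarboxylate transporter, was 3.83 and 3.04 times higher, Cd93 5.75 and 5.98 times, and Avpi1 3.06 and 2.36 times. Sema6a had 14 UMIs against 1 in WT (14.0 times, 2.13 to 592) and 6 against 1 in mgR (17.4 times, 2.11 to 801). Of the mgR member UMIs, 12 of 33 for Cd93 and 3 of 6 for Sema6a lay in the mixed barcodes, against 25% over all genes. Stab2 and Ret had 0 UMIs there.

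**Figure D3:**
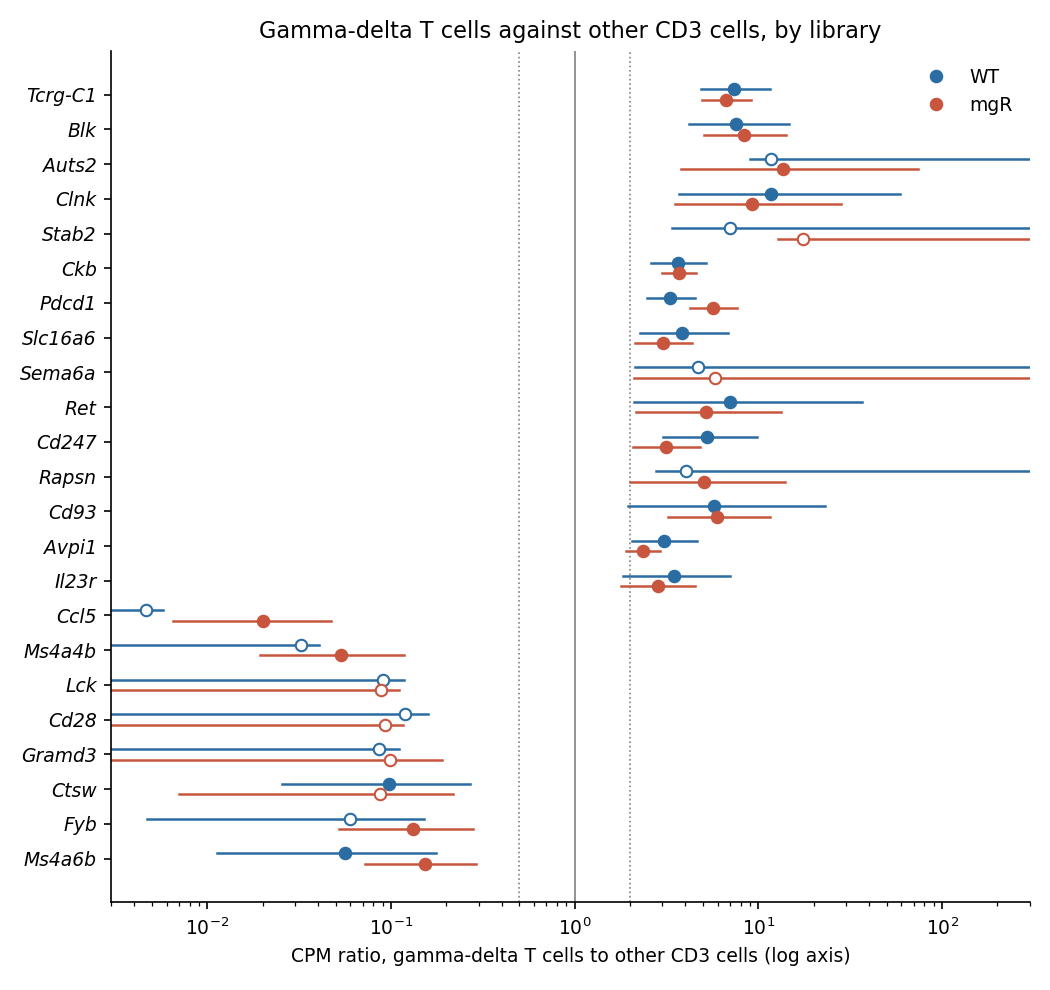
CPM ratio (log axis) of gamma-delta T cells to the other CD3 cells of the same library for 15 genes with the highest lower bounds and 8 with the lowest upper bounds. Lines are 95% intervals for counting error, cut at the axis limits. Open points mark a class with fewer than 3 UMIs, which was set to 3. The 2 libraries fall on the same side of 1 for all 23 genes, which follows from ranking the genes by the weaker bound of the 2 libraries.

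Of 14 tested residency and trafficking genes 0 were higher and 2 lower, namely Ccr7 and S1pr1, which guide T cells to and out of lymph nodes. Cxcr6, a receptor of tissue-resident T cells, was at 1006 and 721 CPM and had UMIs in 48 of 52 and 37 of 38 cells. Ccr2, a receptor for inflammatory monocyte chemokines, was at 399 and 368 CPM. Of the integrin subunits 1 of 13 was lower, Itga4, with 1 and 9 UMIs against 38 and 109, the 9 all in mixed barcodes. Of 8 tested checkpoint and regulatory receptors 2 were higher, Pdcd1 and Tox, and 3 lower, Cd28, Ctla4 and Nt5e.

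The mgR members were not uniform in their receptor genes. All 52 WT cells had a UMI of Trdv4, Tcrg-V6 or Cd163l1. In the mgR library 28 of 38 did so, and 10 met the rule on Trdc alone, 9 of them outside the mixed barcodes. Those 9 had 2 to 13 Trdc UMIs (median 4) at a median depth of 5090 UMIs. The 25 other unmixed mgR cells had 2 to 44 (median 14) at 4569 UMIs. The 9 Trdc-only cells were thus not shallower by the median, but ranged from 945 to 12525 UMIs, against 3893 to 10922. Of the 15 unmixed mgR members with Xist UMIs 0 were of this kind, against 6 of 12 with Y-linked UMIs and 3 of 7 with neither, and whether they came from 1 animal was not tested.

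The 9 cells lacked other genes that marked the rest of the population. This split was made after the values were seen, and its values are a description. Pdcd1 had 0 UMIs in the 9 cells and 132 in the 25 others, Blk 0 and 57, and Trbc1 0 and 107. Tcrg-C1 had 4 UMIs in 2 of 9 cells and 129 UMIs in all 25 others, and Cd247 had 1 and 47. Tcrg-C2 and Tcrg-C4 differed less, at 139 against 231 CPM and 174 against 216 CPM. All 9 had Cd3e, Cd3d and Cd3g UMIs, and Trac, Lck and Cd28 were at 0 in them.

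Other genes were higher in the 9 cells. Cd40lg, the ligand that helper T cells use to activate CD40-bearing cells, had 26 UMIs in 8 of 9 cells and 0 in the 25 others. Arl4c, a small GTPase, had 25 UMIs in 9 cells and 2 in 2 cells. Fos, an immediate early transcription factor, was at 1391 against 157 CPM, Icos, a costimulatory receptor, at 1078 against 410.3 CPM and Thy1 at 591 against 298 CPM. Shared features remained: Il7r was at 2103 and 2507 CPM, Cxcr6 at 730.1 and 1007 CPM, Ccr2 at 469 and 463 CPM and Maf at 799.6 and 649 CPM. Il17a had 9 UMIs in 1 of the 9 cells and 5 UMIs in 2 of the 25.

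Cells with many cell cycle transcripts were few. With a limit of 10 UMIs over Mki67, Top2a, Birc5, Pclaf, Rrm2, Cdk1 and Ccnb2, 1 of 52 WT cells (12 UMIs) and 4 of 38 mgR cells (36, 42, 53 and 65 UMIs) passed, and all other cells had at most 1 UMI in WT and 2 UMIs in mgR. The mgR cell with 65 UMIs was a mixed barcode. Of the other 3, 2 were among the 9 Trdc-only cells and 1 was not.

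**Figure D4:**
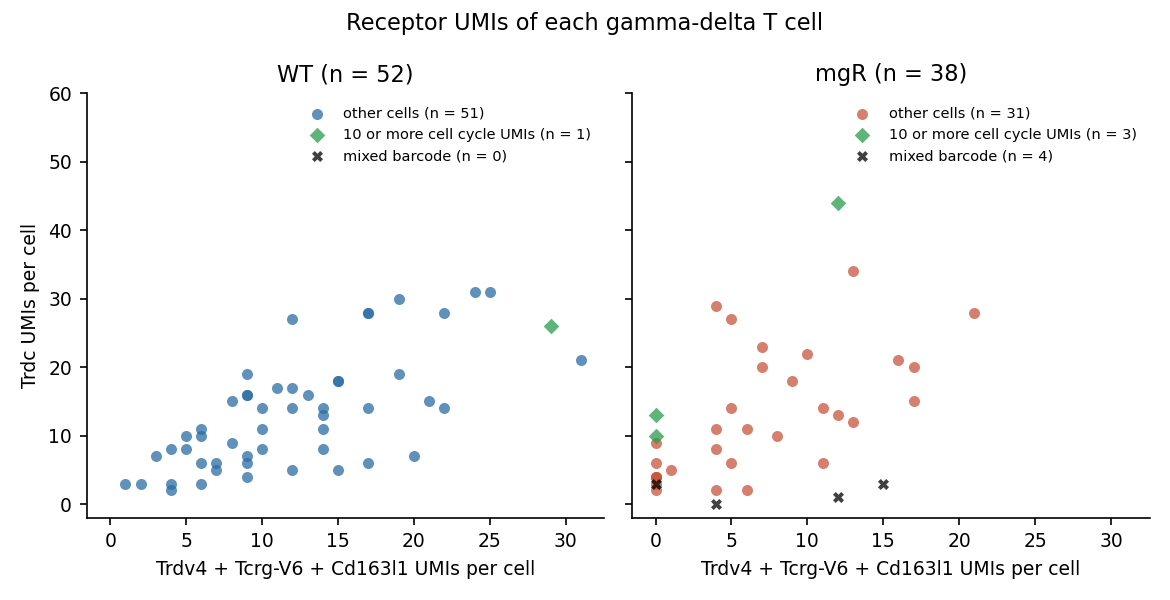
Trdc UMIs (y axis) against the summed Trdv4, Tcrg-V6 and Cd163l1 UMIs (x axis) of each gamma-delta T cell in each library. Each point is a cell. In the WT panel no cell sits at 0 on the x axis, whereas in the mgR panel 10 cells do, 1 of them a mixed barcode and 2 of them with 10 or more cell cycle UMIs.

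Within the gamma-delta T cells, 3398 genes had at least 20 UMIs over both libraries. Of these, 157 (4.62%) were higher in mgR and 146 (4.30%) lower, by at least 2-fold with an interval that left out 1, and the median log2 ratio was -0.061. Without the 4 mixed barcodes 75 of 3006 genes (2.50%) were higher and 98 (3.26%) lower, of which 60 and 83 were among the calls with all cells. In the 25 unmixed mgR cells with a Trdv4, Tcrg-V6 or Cd163l1 UMI against all 52 WT cells, 64 of 2667 genes (2.40%) were higher and 69 (2.59%) lower. Calls in these cells thus depended on which mgR barcodes were counted.

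The genes with the highest ratios came from the mixed barcodes. Among them were the MHC class II genes H2-Ab1, H2-Aa, H2-Eb1 and Cd74, the matrix genes Mgp and Dcn, the interferon-induced Ifitm3, Ifitm2 and Ifi27l2a, and Cd9 and Cst3. Cd74 had 6 UMIs in WT and 498 in mgR members, 494 of them in the mixed barcodes. Mgp had 8 and 541 UMIs, 535 of them in the mixed barcodes. Cst3, a protease inhibitor that is abundant in dendritic cells and macrophages, had 57 and 756 UMIs with a ratio of 10.9 (8.35 to 14.6), and a ratio of 1.12 (0.763 to 1.64) without the mixed barcodes. Without them none of the genes named here was called.

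Of 6 tested gamma-delta receptor genes, 2 were lower in the mgR cells (Trdv4 and Tcrg-V6) and 0 higher, with all cells and without the mixed barcodes alike. Over all genes tested 4.30% were lower with all cells and 3.26% without the mixed barcodes. In the 25 cells 1 was lower (Tcrg-V6) and 1 higher (Tcrg-C2). Tcrg-V6 was at 180.4 CPM in WT and 27.4 CPM in mgR members (ratio 0.152, interval 0.0573 to 0.345). It was also lower at 0.145 (0.0445 to 0.368) without the mixed barcodes and at 0.207 (0.0635 to 0.526) in the 25 cells. Trdv4 was at 1514 and 478 CPM (0.316, 0.254 to 0.390), at 0.400 without the mixed barcodes and at 0.572 in the 25 cells, where it was not called. Cd163l1 was at 1338 and 509 CPM (0.380, 0.307 to 0.470), and at 0.596 in the 25 cells. Trdc had ratios of 0.570, 0.748 and 0.944 in the 3 sets. The gamma constant gene Tcrg-C2 had 22 and 40 UMIs (1.5, 0.870 to 2.65), with ratios of 1.95 (1.13 to 3.45) without the mixed barcodes and 2.22 (1.24 to 4.02) in the 25 cells. Tcrg-C4 had 25 and 45 UMIs (1.49, 0.891 to 2.53), and was called in none of the 3 sets. The rule used these genes to choose the cells in both libraries alike, and the 25 cells were picked by UMIs of 3 of them, so these differences are given as a description. Among unmixed cells with Xist UMIs Tcrg-V6 was at 213 and 23.9 CPM (16 and 2 UMIs), and among those with Y-linked UMIs at 145 and 31.1 CPM (12 and 2 UMIs). In the same order Trdv4 was at 1063 and 754 CPM and at 1897 and 264 CPM.

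Thinned to 1000 UMIs, Cd163l1 was seen in 73.1% of 52 WT and 40.5% of 37 mgR cells, and Trdv4 in 67.3% and 37.8%. The thinning left out 1 mgR cell with fewer UMIs. Both genes are rule genes, and the mgR cells include mixed barcodes and Trdc-only cells, which lack both genes by definition. Without thinning the shares were 96.2% and 73.7% for Cd163l1, and 94.2% and 63.2% for Trdv4. In fibroblast-rich cells Cd163l1 was seen in 0 of 352 and 0 of 1196 cells, and Trdv4 in 0 and 1.

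Of 23 tested genes of the IL-17 program, 0 were higher and 4 lower in mgR, among them Il1r1, Aqp3 and Cd163l1. Without the mixed barcodes 2 of 23 were lower (Aqp3 and Cd163l1), in the 25 cells 1 (Aqp3), and 0 were higher in either. The list had a median log2 ratio of -0.28 against -0.061 over all genes, and of 0.037 against -0.027 without the mixed barcodes. Il1r1 was at 309 and 149 CPM (0.482, 0.314 to 0.731), at 0.558 without the mixed barcodes and 0.726 in the 25 cells. Aqp3, a water and glycerol channel of IL-17-producing gamma-delta cells, was at 252 and 86.2 CPM (0.342, 0.198 to 0.573), and was called in all 3 sets, with ratios of 0.332 and 0.415 in the latter. In the other CD3 cells Aqp3 was also lower in mgR, at a ratio of 0.487 (0.277 to 0.879). Il17a had a ratio of 0.608 (0.282 to 1.28), Il23r 0.733 (0.467 to 1.15) and Il7r 0.839 (0.739 to 0.952), none of them called.

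Pdcd1, a checkpoint receptor, Blk and Cd247, the zeta chain of the CD3 complex, had lower values in mgR that were not called. In members Pdcd1 was at 959 and 544 CPM (ratio 0.568), Blk at 465 and 247 CPM (0.530) and Cd247 at 375 and 199.7 CPM (0.533), none of them past the 2-fold limit. The same ratios were 0.719, 0.640 and 0.668 without the mixed barcodes, and 1.03, 0.914 and 0.935 in the 25 cells. Pdcd1 was lower in the other CD3 cells of mgR, at a ratio of 0.331 (0.232 to 0.474). Of 12 tested CD3 and signalling genes 1 was called: Thy1, a surface glycoprotein of T cells, was higher in mgR at 138 and 356 CPM (2.59, 1.69 to 4.08), at 2.81 without the mixed barcodes and at 2.17 (1.31 to 3.63) in the 25 cells. In the other CD3 cells, with their mixed barcodes kept, the Thy1 ratio was 1.08 (0.836 to 1.42).

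Of 13 tested cell cycle genes 10 were higher in mgR and 0 lower, with a median log2 ratio of 2.3 against -0.061 over all genes. Without the mixed barcodes 8 of 12 were higher, with a median of 1.8. Stmn1, a tubulin regulator, had 12 UMIs in 3 WT cells and 114 in 7 mgR cells (ratio 7.84, 4.32 to 15.6), and a ratio of 8.16 without the mixed barcodes. Top2a, the topoisomerase of dividing cells, had 5 and 45 UMIs (7.43, 2.96 to 24.0), and Mki67 had 7 and 55 UMIs (6.48, 2.94 to 16.9). Without the mixed barcodes their ratios were 6.16 (2.35 to 20.4) and 5.81 (2.56 to 15.5). Mki67 came from 3 WT and 4 mgR cells, up to 22 UMIs in 1 of them, so its ratio rests on the few cycling cells described above. In the 25 cells, 1 of them cycling, 4 of 8 tested genes were higher, and Mki67 had a ratio of 1.12 (0.281 to 4.11).

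The activation and immediate early list had a median log2 ratio of 0.47 against -0.061 over all genes. Without the mixed barcodes the medians were 0.028 and -0.027. Over all genes tested 4.62% were higher in mgR and 4.30% lower. In this list 4 of 18 tested genes were higher (Fos, Fosb, Nr4a1 and Nr4a2) and 1 was lower. The lower one was Cd69, an early activation antigen that also marks resident cells. Of the 4, Fos was the 1 also called without the mixed barcodes, with a ratio of 2.22 (1.57 to 3.18), and in the 25 cells its ratio was 0.660 (0.377 to 1.12). Cd69 had 23 and 13 UMIs (0.466, 0.217 to 0.960), with ratios of 0.430 (0.175 to 0.966) without the mixed barcodes and 0.342 in the 25 cells. Klf4, a transcription factor of quiescent cells, was higher at 157 and 744 CPM (4.75, 3.27 to 7.1), at 3.63 without the mixed barcodes and at 2.91 (1.87 to 4.58) in the 25 cells. Of the 190 Klf4 UMIs of the mgR members, 81 lay in the mixed barcodes. In the other CD3 cells, with their mixed barcodes kept, the Klf4 ratio was 1.22 (0.919 to 1.63). It was not computed there without them.

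Integrin and TGF-beta genes were examined because IL-17-producing gamma-delta cells bear integrins of the alpha-v family, which release TGF-beta from its latent complex. Of 8 tested integrin subunits 2 were lower in mgR and 0 higher, with a median log2 ratio of -0.24. Over all genes tested 4.30% were lower and 4.62% higher, with a median of -0.061. Itgb3 had 23 and 8 UMIs (0.287, 0.111 to 0.665), and was lower in all 3 sets. Itgav had 22 and 11 UMIs (0.413, 0.181 to 0.888), and was not called without the mixed barcodes (0.45). Of 9 tested TGF-beta response genes 2 were lower, Itgav and Smad4, and 2 higher, Pmepa1 and Ltbp4. The median log2 ratio of this list was -0.38. Pmepa1 had 38 of its 55 mgR UMIs in the mixed barcodes and a ratio of 0.984 without them. Ltbp4, a latent TGF-beta binding protein, had 21 of its 22 mgR UMIs in the mixed barcodes. Without these barcodes 0 of 8 tested genes were higher and 1 lower (Smad4), and in the 25 cells 0 were higher and 2 lower (Ski and Pmepa1). The shares over all genes tested were 2.50% higher and 3.26% lower without these barcodes, and 2.40% and 2.59% in the 25 cells. Smad4 had 27 and 14 UMIs (0.428, 0.207 to 0.845), a ratio of 0.367 without the mixed barcodes, and a ratio of 0.466 in the 25 cells, where it was not called.

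The remaining lists held few calls. Over all genes tested 4.62% were higher and 4.30% lower. Of 13 tested cytokine receptors Il1r1 alone was lower, of 11 mTOR and metabolic genes Rictor alone, at 0.330 (0.105 to 0.900), and of 10 chemokine receptor and residency genes Klf2 was higher and Cd69 lower. Rictor, a subunit of mTOR complex 2, had 6 UMIs without the mixed barcodes (0.440, 0.140 to 1.2) and was not called. In the 25 cells it had 4 (0.419, 0.101 to 1.32), too few over both libraries to be tested there. None of the tested cytokine receptors was called in either of these sets. Klf2 had 34 of its 42 mgR UMIs in the mixed barcodes. None of 6 tested cytokine and growth factor genes and none of 4 tested checkpoint genes was called. Calca, the calcitonin gene-related peptide, had 47 UMIs in 16 WT cells and 21 in 5 mgR cells (0.369, 0.209 to 0.629), and was the 1 tested gene of the type 2 list. Its ratio was 0.491 (0.279 to 0.838) without the mixed barcodes, and 0.602 (0.329 to 1.06) in the 25 cells, where it was not called. In the other CD3 cells the Calca ratio was 0.545 (0.359 to 0.840). Of the alpha-beta genes Cd40lg was higher, with 3 and 32 UMIs (8.80, 2.75 to 44.9), 26 of the 32 in the 9 Trdc-only cells.

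The 12 genes with the lowest ratios in mgR were mostly unrelated to the lists. AY036118, a transcript of unknown function, had 777 and 177 UMIs (0.188, 0.159 to 0.222), with medians of 14.5 and 4.5 per cell, and was lower to a like extent in the other CD3 cells (0.253, 0.227 to 0.283). Bcl2l11, which encodes the death-promoting protein BIM, was lower at 0.236 (0.104 to 0.486) in the gamma-delta cells and at 0.391 (0.266 to 0.579) in the other CD3 cells. Irs2, an insulin signalling adaptor, was at 318 and 70.5 CPM (0.222, 0.124 to 0.377) and at 0.422 (0.236 to 0.719) in the 25 cells, while its ratio in the other CD3 cells was 1.14 (0.650 to 2.11). The others were Tcrg-V6, the cyclin gene Ccng1, the phosphatase gene Acpp, the peroxisome gene Pex13, the amino acid transporter gene Slc16a10, Dennd1c, the clock gene Nr1d2, Cux1 and Pld3, with ratios of 0.152 to 0.275 on 4 to 9 mgR UMIs each. All 12 were called in each of the 3 sets of cells. Over all called genes, 8 of 75 higher and 11 of 98 lower genes without the mixed barcodes were called in the same direction in the other CD3 cells, and 0 in the opposite one. With the mixed members counted, 38 of 157 higher and 10 of 146 lower genes were called alike. The other CD3 cells kept their own mixed barcodes in both counts. The share of all genes called in the other CD3 cells is not given here, so nothing is concluded from these counts.

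**Figure D5:**
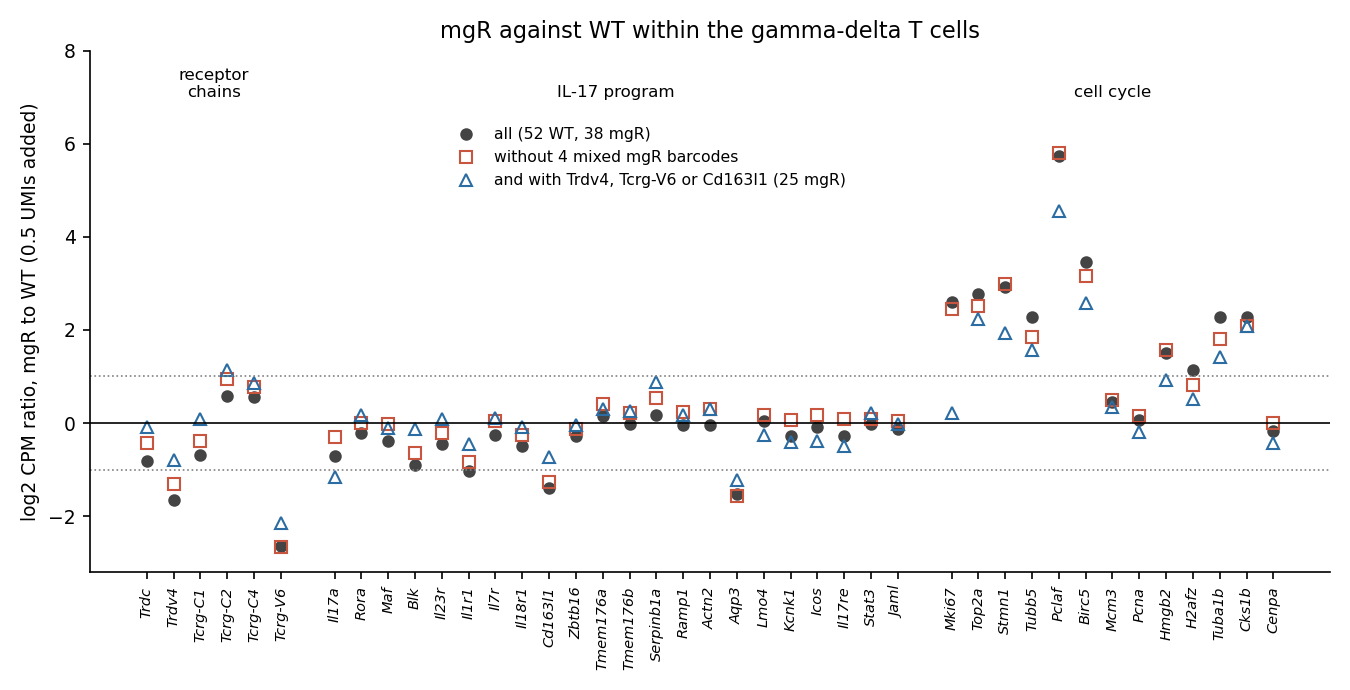
Log2 CPM ratio of mgR to WT within the gamma-delta T cells (0.5 UMIs added to each count) for tested genes of 3 lists. Filled circles use all cells, squares leave out the 4 mixed barcodes and triangles use the 25 unmixed mgR cells with a Trdv4, Tcrg-V6 or Cd163l1 UMI. Dotted lines mark 2-fold, Tcrg-V6 lies lowest in each set, and most cell cycle genes lie above the upper line.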

How the data were processed

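Mitral valve cells of 1 WT and 1 mgR library (10x Genomics 3′ chemistry of version 3) were analysed. The authors deposited counts, the UMIs per gene and barcode. Cell Ranger 7.1.0 and the mm10 build are named in the submitters' processing notes, and mm10 is the same build as GRCm38. The matrices held 1104 and 3802 barcodes with 5381844 and 28215539 UMIs, and 2 barcodes occurred in both, neither a member in either. Feature identifiers were matched to GENCODE M21 (32158 of 32285). The members and the 24 gene lists (336 of 337 listed genes were in the files) were chosen with earlier results of these data known.

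Counts were summed over the cells of a class and library and given as CPM. Ratios have exact conditional binomial intervals and shares have Clopper-Pearson intervals at 95%, in Python 3.11.15 with scipy 1.17.1. Ratios were checked on simulated counts drawn independently for each gene, as the intervals assume. Clustering of UMIs in few cells was not simulated, so the check does not cover genes with such clustering. PCR duplicates were collapsed by UMI, and intervals cover counting error only. The genes named were 15 with the highest lower bounds and 8 with the lowest upper bounds against the other CD3 cells, 12 with the highest and 12 with the lowest genotype ratios among called genes whose call held without the most loaded cell, and listed genes that were called or had the most UMIs, leaving out mitochondrial, ribosomal, haemoglobin, unnamed, Xist and Y-linked genes. A class with under 3 UMIs was ranked at 3. Doublets were not removed. Scrublet (scanpy 1.11.5) marked 7 of 875 WT and 51 of 3438 mgR cells, 2 of them members, and was used as an alternative. Groups came from the sample labels. Klf4, Arl4c and listed genes below these ranks were named after their values were seen. Mixed barcodes, the Trdc-only split and the splits by Xist and Y-linked UMIs were chosen after the values were seen. No cells were clustered and the authors' cell types were not used here. Some genes that the rules select are not reported here.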

Additional observations from a re-analysis of the deposited data

Results flagged for a closer look

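Genes named or listed in the comparison with the other CD3 cells that were called in opposite directions in the 2 libraries are given here, and the difference between the libraries was not tested. The ratio of gamma-delta to other CD3 cells in the mgR library was 2.74 for Cd74, 3.98 for H2-Aa, 4.76 for H2-Ab1, 4.16 for H2-Eb1 and 5.0 for Cst3, against 0.0115, 0.0178, 0.0135, 0.0136 and 0.263 in the WT library. For Pld3 it was 0.475 in the mgR library and 2.08 in the WT library. Over all named and unnamed genes 22 were called in opposite directions. None of the 22 was so called without the mixed barcodes, while 1 other gene was called in opposite directions without these barcodes. Without them the mgR ratios were 0.548 for Cd74 and 1.33 for Cst3, and the WT ratios 0.777 and 1.2, the WT values having changed because 2 mixed barcodes among the WT CD3 cells were left out as well.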

How the results depend on the processing

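The lower share of gamma-delta T cells in mgR kept its direction, with an interval leaving out 0, under every alternative run: from -3.84 to -5.64 percentage points of all cells and from -25.7 to -39.4 points of CD3 cells. The mgR share itself left its interval when cells were thinned to 1000 UMIs before the rule (0.709% of all cells, 16.3% of CD3 cells), when only unmixed members with a Trdv4, Tcrg-V6 or Cd163l1 UMI counted (0.727% of all cells) and within cells with Y-linked UMIs (1.80%). Genes called mgR against WT changed more. The higher calls numbered 269 with a minimum of 10 UMIs, 18 after thinning, 64 without the most loaded cell of each gene, 75 without mixed barcodes and 64 in the unmixed members with those UMIs. The lower calls numbered 17 after thinning and 69 in the latter set, and the split of higher against lower calls went from 157 and 146 to 174 and 116 when the median gene ratio set the scale, and to 64 and 179 without the most loaded cell. Against the other CD3 cells thinning left 13 higher and 17 lower. Thinning leaves fewer UMIs per gene and so fewer genes tested.

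Without mixed barcodes the log2 ratio turned to -0.71 for Bgn, -0.39 for Cd74, -0.23 for Dcn, -1.09 for H2-Aa and H2-Ab1, -0.35 for H2-Eb1, -0.25 for Mgp, -0.31 for Nr4a2 and -0.02 for Pmepa1. In unmixed members with a Trdv4, Tcrg-V6 or Cd163l1 UMI it was -0.93 for Bgn, -2.15 for Cd40lg, -1.46 for Cd74, -0.20 for Dcn, -0.58 for Fos, -0.47 for Fosb, -0.57 for H2-Aa, -2.15 for H2-Ab1, -0.26 for Klf2, -0.29 for Nr4a1, -0.08 for Nr4a2 and -1.83 for Pmepa1. Without Scrublet-marked cells it was -0.96 for Bgn, -0.11 for Ltbp4, -0.48 for Dcn and -0.50 for Mgp, and without the most loaded cell -0.18 for Bgn. No paired analysis was possible because each genotype had 1 library.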
